A study of Mus musculus with 44 samples.

Results

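Back skin from mice injected with bleomycin for 4 weeks was compared with back skin from mice injected for 2 weeks, to describe how gene expression moved from early injury to established fibrosis. The comparison used 20 of the 44 mice of the series, 10 in each group, chosen by their labelled treatment and not by any measured value. All were female C57Bl/6 mice of the WT genotype, 8 weeks old at the start, and bleomycin was given daily under the skin of the back as 100 µL at 1 U/mL. The other mice received saline (10 mice) or were left to recover for 6 weeks (6 mice) or 10 weeks (8 mice) after bleomycin. Every mouse contributed 1 RNA library, made from a part of its biopsy while the rest went to histology, and fewer cells of a type and less RNA per cell cannot be told apart. The 4-week mice had more injections and were also older at harvest than the 2-week mice, and these cannot be told apart either.

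Bleomycin breaks DNA and is used under the skin as a model of the skin fibrosis of systemic sclerosis. The early phase is known for leukocyte entry, with monocytes recruited through the receptor Ccr2, and for interferon and acute-phase genes. Later, fibroblasts lay down collagen, which is trimmed by proteases, crosslinked by lysyl oxidases and bound by small proteoglycans and by matricellular proteins, secreted proteins that signal to cells from within the matrix. Mouse back skin also holds hair follicles, fat, nerves and a thin sheet of striated muscle, so all of these contribute RNA to a biopsy.

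The reads counted on genes were 9283128 to 11530560 per mouse at 2 weeks (median 9863482) and 8509094 to 13902575 at 4 weeks (median 12255521). Markers of keratinocytes, fibroblasts, endothelium, leukocytes, striated muscle and fat were all present in both groups, as a skin biopsy should have. The keratin of basal keratinocytes, Krt5, ranged from 51132 to 68507 (median 60607) at 2 weeks and from 56984 to 75257 (median 63591) at 4 weeks. Markers of the growing hair follicle were low in most of the mice, with a median of 9.21 and 19.6 normalized counts of the inner root sheath keratin Krt71 at 2 and 4 weeks. One 2-week mouse, mouse 2, stood apart from its group, with a median correlation of 0.9378 with the other 9. At 4 weeks the lowest was mouse 3, at 0.9649.

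Differences are log2 fold changes, 4 weeks minus 2 weeks, of log2(normalized count + 1), tested with limma over the 17037 genes with a mean normalized count above 3. The size given after "rose by" or "fell by" is such a log2 fold change. A gene was called at an absolute fold change above 1.5 and a Benjamini-Hochberg adjusted p below 0.05. In all, 400 genes were called (2.35% of those tested), 253 higher at 4 weeks (1.49%) and 147 lower (0.863%). The ranges of the 10 and 10 mice did not overlap for 31 genes (0.182%), 16 of them called. With edgeR and DESeq2, run on the whole reads recovered from the normalized counts, 52.9% and 52.8% of the calls were higher, against 63.2% here. The median log2 fold change of all genes was -0.003. The difference was modest in size: 75 calls rose by more than 1 on the log2 scale and 53 fell by more than 1. Without 2-week mouse 2 there were 310 calls, 276 of them among the 400, and without both mouse 2 and 4-week mouse 3, which was tried once the data had been seen, there were 324, of which 263 were shared. With each of the 20 mice left out in turn, 212 of the 400 genes were called every time.

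**Figure D1:**
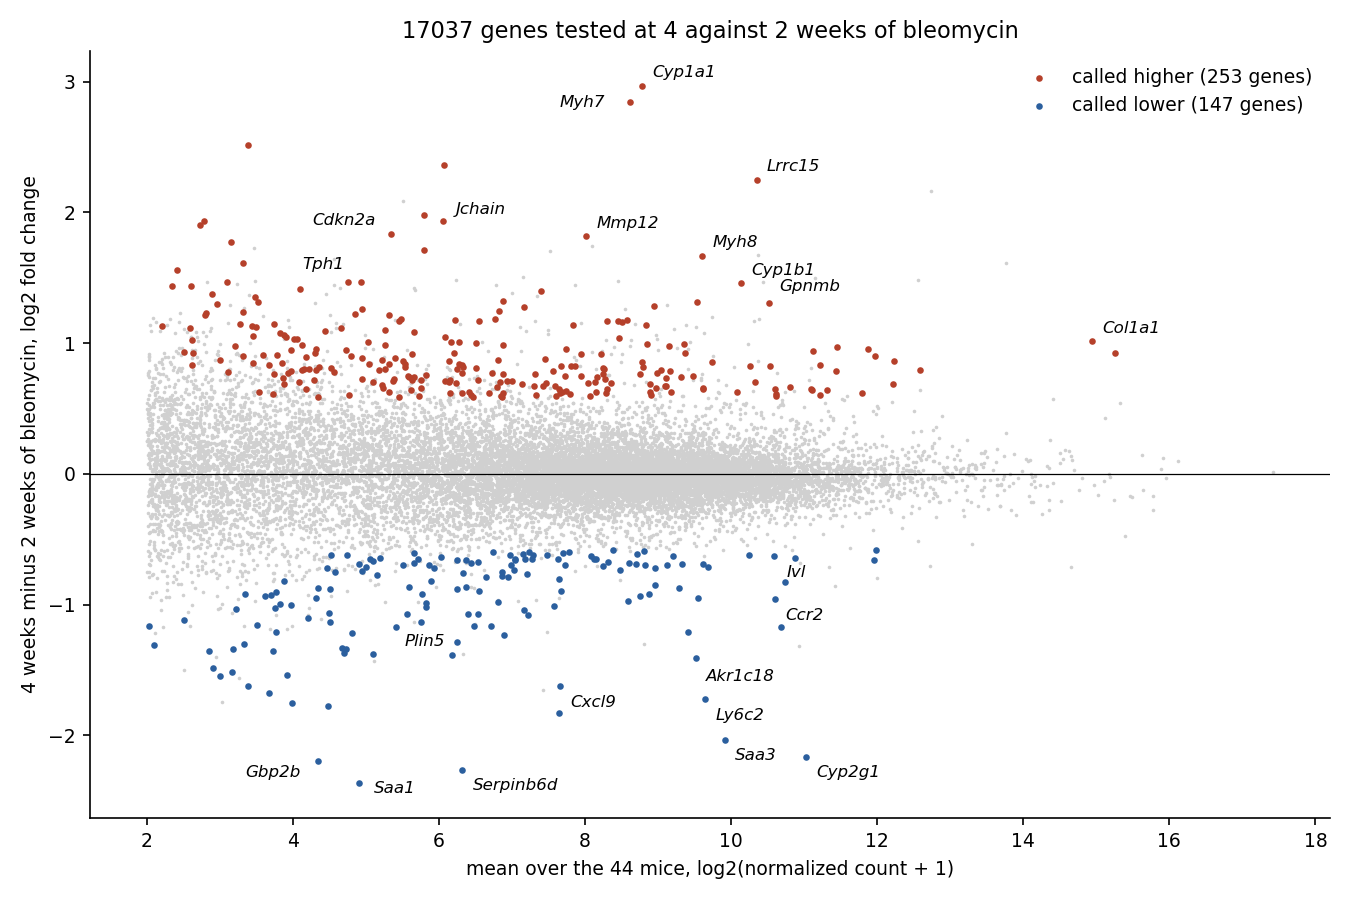
Each of the 17037 genes is drawn by its mean over the 44 mice (x axis, log2 of normalized count + 1) and its log2 fold change at 4 against 2 weeks (y axis); red points are the 253 genes called higher, blue points the 147 called lower, and grey points genes not called. Cyp1a1 lies highest, at 2.97, and Saa1 lowest of the called genes, at -2.36.

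The smallest adjusted p-values of the comparison were those of a pair of cytochrome P450 genes. Cyp1b1 and Cyp1a1 encode enzymes that oxidize aromatic compounds, and both are textbook targets of the aryl hydrocarbon receptor, a ligand-activated transcription factor that pairs with Arnt and binds DNA at the core GCGTG. The normalized count of Cyp1b1 (chromosome 17, 79701537 to 79715061 in GENCODE vM21, build GRCm38, minus strand) ranged from 422.7 to 919 (median 704.9) at 2 weeks and from 1069.6 to 2373 (median 2102) at 4 weeks. All 10 mice at 4 weeks lay above all 10 at 2 weeks, and the log2 fold change was 1.46 (SE 0.12, adjusted p = 1.18e-11). For Cyp1a1 (chromosome 9, 57687928 to 57703824, plus strand) the counts ranged from 98.6 to 172.7 (median 126.4) at 2 weeks and from 157.3 to 1897 (median 1308) at 4 weeks, a log2 fold change of 2.97 (SE 0.26, adjusted p = 5.5e-11). Here 9 of the 10 mice at 4 weeks lay above the 2-week range, the lowest of them at 744.4, and mouse 10 lay within it at 157.3. That mouse was also the lowest of its group for Cyp1b1, at 1069.6. In saline mice the median was 339.3 for Cyp1a1 and 838.1 for Cyp1b1. After 6 and 10 weeks of recovery it was 234.7 and 174 for Cyp1a1, and 956.3 and 923.1 for Cyp1b1, so the 4-week group had the highest median of the 5 groups for both.

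The 250 bases before the RefSeq start of Cyp1a1 (chr9:57697363-57697612 of GRCm38.p6, plus strand) and of Cyp1b1 (chr17:79715062-79715311, minus strand) are given because these genes had the smallest adjusted p-values. Both read from 5′ to 3′ along the gene, and capitals mark GCGTG or, on the opposite strand, CACGC.
Cyp1a1: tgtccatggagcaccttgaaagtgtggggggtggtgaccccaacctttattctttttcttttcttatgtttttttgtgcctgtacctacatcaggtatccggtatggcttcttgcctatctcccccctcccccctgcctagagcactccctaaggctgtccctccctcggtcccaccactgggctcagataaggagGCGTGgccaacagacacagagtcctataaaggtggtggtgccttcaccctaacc
Cyp1b1: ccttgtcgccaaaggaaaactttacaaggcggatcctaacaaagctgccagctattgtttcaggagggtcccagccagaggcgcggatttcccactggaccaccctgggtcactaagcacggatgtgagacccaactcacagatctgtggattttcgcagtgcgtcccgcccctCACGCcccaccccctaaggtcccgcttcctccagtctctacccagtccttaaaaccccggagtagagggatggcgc
The match began 54 bases before the start in Cyp1a1 and 76 in Cyp1b1. Among the 7 genes of the receptor's list with a promoter in the table, 5 held the motif on either strand, and 28.2% of all 32851 promoters did, since a motif of 5 bases is common. The list was written down after the values of Cyp1a1 and Cyp1b1 were seen. Of its 8 members tested only those genes were called, and all 8 had a log2 fold change above 0. Ahr, the receptor itself, had medians of 1246 and 1409 (adjusted p = 0.68), and Ahrr, its repressor and target, 104.8 and 127.5, a log2 fold change of 0.33 (SE 0.16, adjusted p = 0.234). Nqo1, a quinone reductase, and Aldh3a1, an aldehyde dehydrogenase, had adjusted p-values below the threshold but smaller differences, 0.36 (adjusted p = 0.00908) and 0.46 (adjusted p = 0.037) on the log2 scale.

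**Figure D2:**
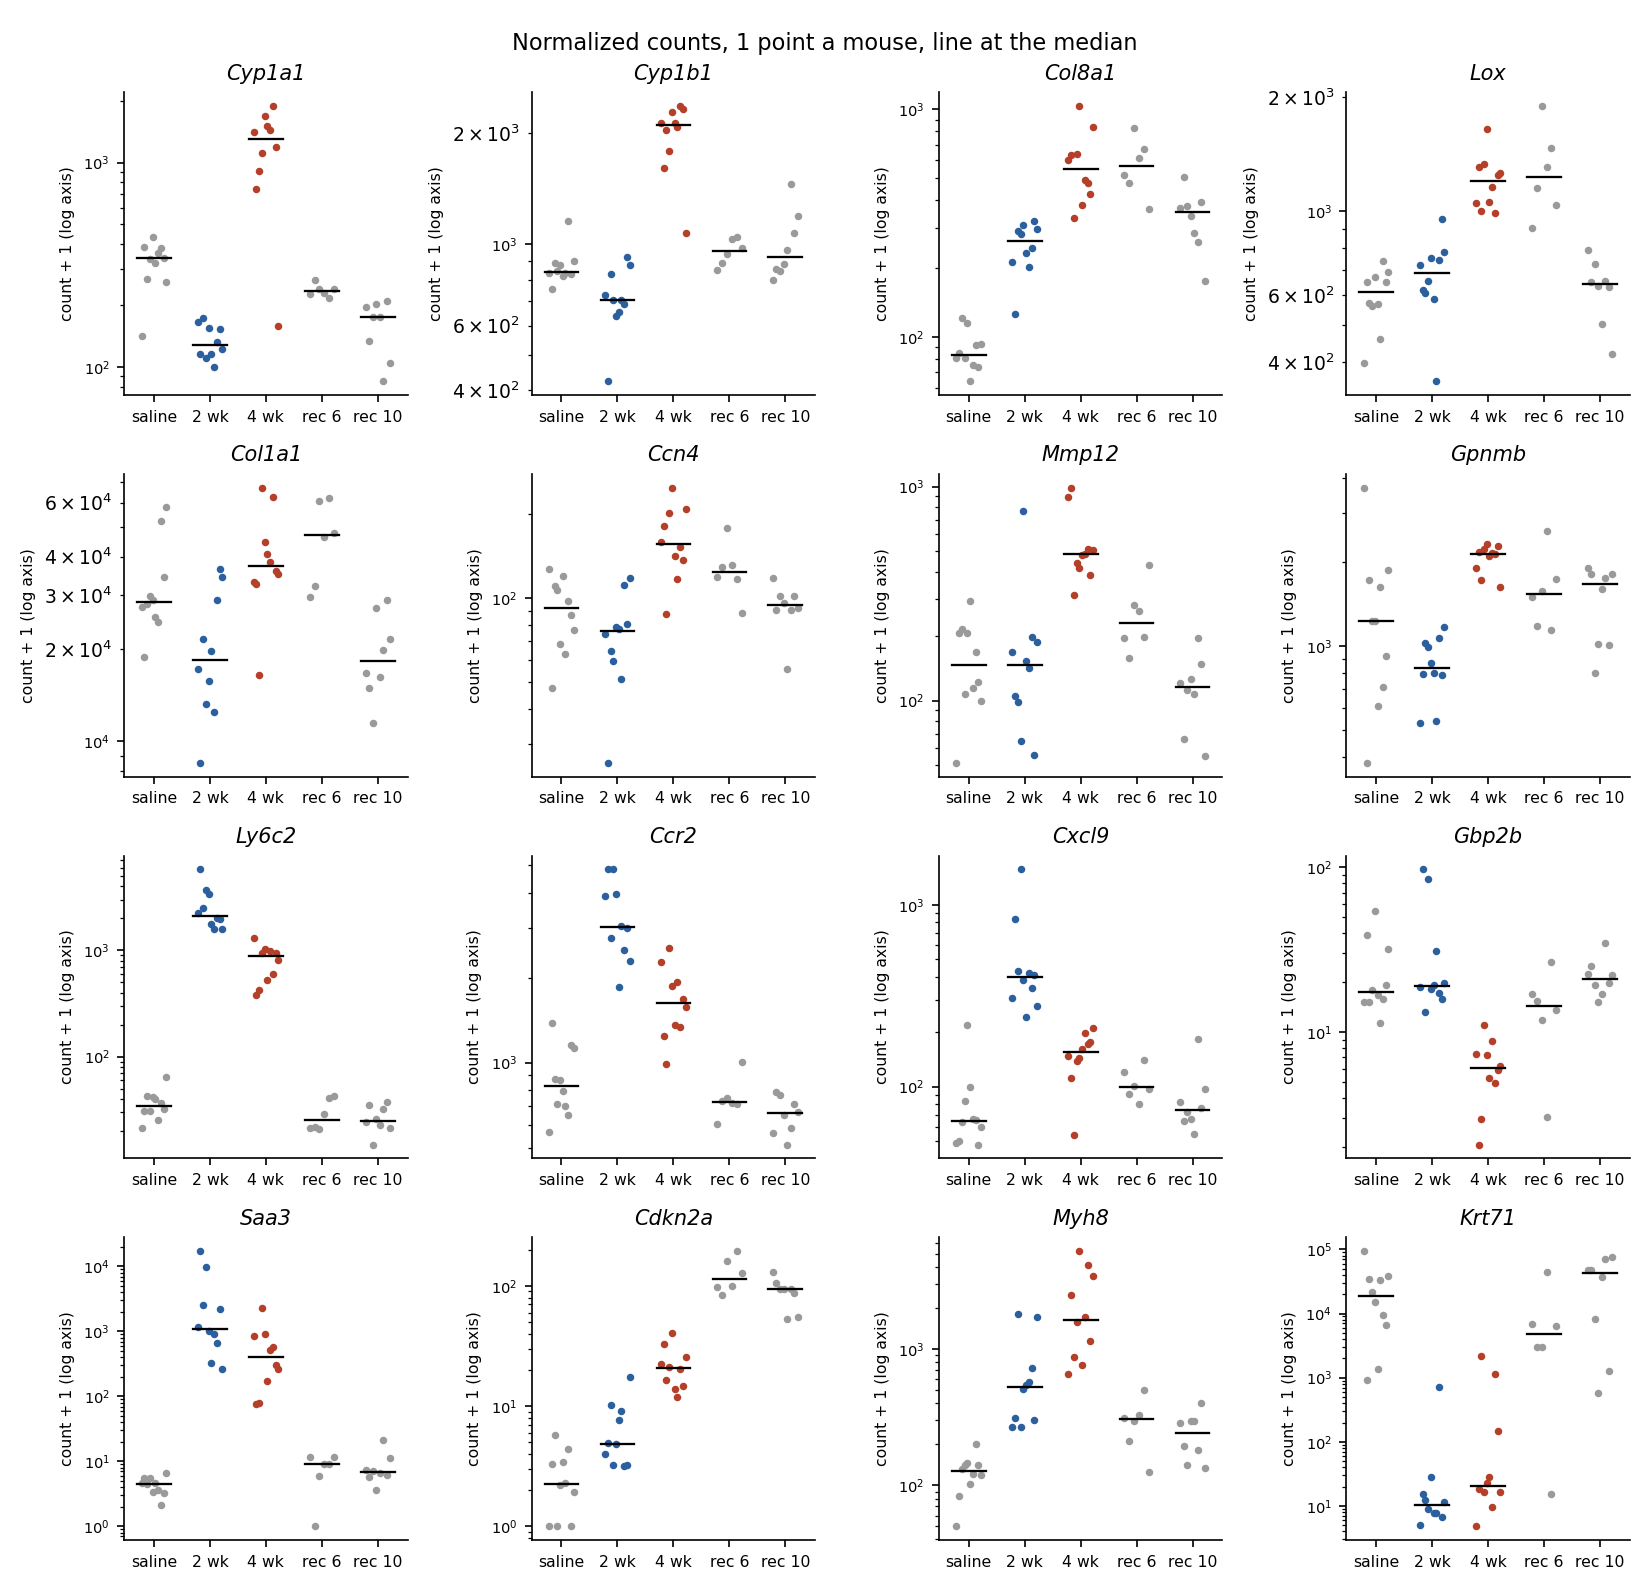
Normalized count + 1 (log axis) of 16 genes in each of the 44 mice, with blue points for 2 weeks, red for 4 weeks, grey for saline and for 6 and 10 weeks of recovery, and a line at the median of each group. Cyp1b1, Col8a1, Lox and Gpnmb were higher in all mice at 4 weeks than in any at 2 weeks, and Ly6c2, Cxcl9 and Gbp2b lower. Of these 2 groups, Krt71 passed 100 only in 2-week mouse 8 and in 4-week mice 3, 8 and 9.

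Genes of the collagen matrix were higher at 4 weeks than at 2 weeks. A rise here is against the 2-week mice and does not say that a gene stood above saline. Of the 11 fibrillar collagens, which form the rope-like fibrils of the dermis, 5 rose (45.5%, against 1.49% of all genes) and none fell, with a median log2 fold change of 0.62. Col1a1, a chain of type I collagen, the main collagen of skin, ranged from 8515 to 36511 (median 18491) at 2 weeks and from 16440.0 to 67224 (median 37216) at 4 weeks, a log2 fold change of 1.01 (SE 0.24, adjusted p = 0.00763). Of the 10 mice at 4 weeks, 9 lay at 32644 or above, and mouse 3 was at 16440.0, below the 2-week median. At 2 weeks mouse 2 was lowest, and mice 9 and 10, at 36511 and 34452, lay among those 9. Col1a2, the partner chain, had medians of 21705 and 45482 and a log2 fold change of 0.93 (SE 0.23, adjusted p = 0.0118). The type V chains, which set the width of type I fibrils, also rose, Col5a1 by 0.97 (SE 0.20, adjusted p = 0.00248) and Col5a2 by 0.62 (SE 0.16, adjusted p = 0.0168), a call that was lost without 2-week mice 2 or 7 or 4-week mice 4 or 5. Col24a1, a less abundant fibrillar collagen, ranged from 13 to 45.4 (median 33.8) at 2 weeks and from 42.6 to 83.3 (median 62.3) at 4 weeks and rose by 0.89 (SE 0.16, adjusted p = 0.000816). Col3a1, the second collagen of skin, did not pass, with medians of 25811 and 40991 and a log2 fold change of 0.54 (SE 0.22, adjusted p = 0.137), nor did Col11a1 (1.1, adjusted p = 0.0612), Col5a3 (0.36, adjusted p = 0.101), Col2a1 (0.53), Col27a1 (0.26) or Col11a2 (-0.17).

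The saline median of Col1a1 was 28540.1 and that of Col5a1 3057, so the 2-week medians of 18491 and 1312 lay below saline, and the 4-week medians were 37216 and 2991. After 6 weeks of recovery the medians were 47073 and 4526. These levels are set side by side as descriptions.

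Of the 16 other interstitial collagens tested 7 rose (43.8%) and none fell, and all 16 had a log2 fold change above 0. Col8a1, a short-chain network collagen of vessel walls and remodelling tissue, ranged from 124.9 to 322.6 (median 263.9) at 2 weeks and from 331.4 to 1036 (median 544.1) at 4 weeks, without overlap, and rose by 1.17 (SE 0.18, adjusted p = 0.000158). Its saline median was 82.2 and its median after 6 weeks of recovery 562.3, so its 2-week median already stood above that of saline mice. Col6a1 and Col6a2, chains of the beaded filaments of type VI collagen, rose by 0.87 and 0.9 (adjusted p = 0.0185 and 0.0193). In saline mice they ranged from 2557.9 to 7656.1 and from 2232.4 to 7112.8. At 4 weeks they ranged from 2629.7 to 7163.0 and from 1657.0 to 5888.3. Col13a1, a collagen anchored in the cell membrane, had medians of 25.2 and 43.5 and rose by 0.72, and Col12a1, which coats type I fibrils, rose from a median of 18.4 to 54.9. Without 2-week mouse 2 the count was 4 of 16, and the calls of Col12a1 (adjusted p = 0.0657), Col16a1 (log2 fold change 0.55) and Col28a1 (0.58) were lost. In basement membrane, the sheet beneath epithelium and around vessels, 3 of 24 members rose (12.5%) and all 24 were above 0. Lamc3, a laminin chain, rose by 0.96 (SE 0.25, adjusted p = 0.0166), while the calls of Col18a1 (0.65) and Col4a2 (0.79) held in 11 of the 20 fits with 1 mouse left out. Lamc3 ranged from 131.3 to 408.9 in saline mice and from 130.4 to 399.8 at 4 weeks. The number called in the list ran from 1, without any of 9 mice that include 2-week mouse 2, to 5, and Col4a2 overlaps Col4a1, so their reads may not be told apart.

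Of the 25 genes of collagen modification and crosslinking 3 rose (12%), and 5 did without 4-week mouse 3. Lox, a lysyl oxidase that starts the crosslinking of collagen and elastin, ranged from 355.4 to 950.8 (median 686.3) at 2 weeks and from 987.8 to 1644 (median 1201) at 4 weeks. The groups did not overlap and the log2 fold change was 0.85 (SE 0.13, adjusted p = 0.000174). Adamts2, which removes the N-terminal propeptide of fibrillar procollagen, rose by 0.82 (SE 0.17, adjusted p = 0.00266). In saline mice Lox ranged from 395.8 to 738.2, below the 4-week mice. Adamts2 ranged from 1005.1 to 2612.4 in saline mice and from 1164.3 to 2074.0 at 4 weeks. Loxl4, another lysyl oxidase, rose by 0.71 (adjusted p = 0.0473), a call that held in 6 of the 20 fits. The collagen chaperone Serpinh1 had a log2 fold change of 0.2 (adjusted p = 0.407), and P4hb, a subunit of prolyl 4-hydroxylase, 0.01 (adjusted p = 0.914).

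Matricellular genes rose in 8 of 23 cases (34.8%, against 1.49% of all genes), none fell, and the count was 8 again without 2-week mouse 2. Ccn4, a WNT-induced member of the CCN family, ranged from 24.7 to 117.4 (median 75) at 2 weeks and from 87 to 247.7 (median 154.5) at 4 weeks, a log2 fold change of 1.19 (SE 0.20, adjusted p = 0.000331), with 8 of 10 mice at 4 weeks above the 2-week range. Cthrc1, a secreted protein of activated fibroblasts, rose by 1.25 (SE 0.26, adjusted p = 0.00295), from a median of 39.2 to 109.1, and its median was 330.8 after 6 weeks of recovery. Fn1 (fibronectin), on which cells assemble collagen, rose by 0.79 (SE 0.19, adjusted p = 0.0107), yet its 4-week median of 4550.4 was below that of saline mice (6434) and of recovery (10452 and 8167). Spp1 (osteopontin) rose by 0.81 (adjusted p = 0.00184), Tnn (tenascin-N) by 1.18 (adjusted p = 0.0177), Ccn5 by 0.8 (adjusted p = 0.0101) and Ccn3 by 0.77 (adjusted p = 0.0136). Ccn1 rose by 0.6 (adjusted p = 0.00325) and held in 14 of the 20 fits. The most abundant members, Sparc and Postn (periostin), did not pass, at 0.57 (adjusted p = 0.0802) and 0.36 (adjusted p = 0.0679).

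Among 21 proteoglycan and hyaluronan genes 3 rose (14.3%, against 1.49% of all genes), all of them small leucine-rich proteins that bind collagen. The 1 that fell (4.76%, against 0.863%) was Hmmr, which is described with the division genes. Fmod (fibromodulin), which regulates fibril growth, ranged from 154.8 to 830.4 (median 342.3) at 2 weeks and from 362.2 to 1582 (median 846.4) at 4 weeks, a log2 fold change of 1.32 (SE 0.28, adjusted p = 0.00333). Omd (osteomodulin) rose by 0.92 (SE 0.18, adjusted p = 0.00151) and Prelp by 0.67 (adjusted p = 0.0289, called in 13 of the 20 fits). Omd ranged from 52.7 to 96.1 in saline mice and from 35.0 to 81.0 at 4 weeks. Dcn (decorin), the most abundant of the family in skin, had medians of 17843 and 15878 and a log2 fold change of -0.2 (adjusted p = 0.45), and Bgn (biglycan) 0.64 (adjusted p = 0.069). Of 15 elastic fibre genes 2 rose (13.3%, against 1.49% of all genes). Fbln2 (fibulin-2) rose by 0.94 (SE 0.21, adjusted p = 0.00482) and Ltbp2, a fibrillin-binding protein, by 0.92 (SE 0.23, adjusted p = 0.0139). In saline mice Fbln2 ranged from 1225.3 to 3168.4 and Ltbp2 from 135.9 to 676.2. At 4 weeks they ranged from 1311.9 to 3463.9 and from 581.3 to 2138.9. Fbn1 (fibrillin-1) did not pass, at 0.31 (adjusted p = 0.383). Without 2-week mice 3, 8, 9 or 10 or 4-week mouse 3, 4 elastic fibre genes were called.

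Matrix proteases and their inhibitors rose in 5 of 27 cases (18.5%). Mmp12, the elastase of macrophages, ranged from 54.5 to 766.1 (median 146.4) at 2 weeks and from 310.9 to 990.0 (median 481.6) at 4 weeks, a log2 fold change of 1.82 (SE 0.31, adjusted p = 0.000387). All mice at 2 weeks except mouse 5, at 766.1, lay below all mice at 4 weeks. Mmp2, a gelatinase, rose by 0.69 (SE 0.15, adjusted p = 0.00325), and Mmp14, the membrane protease that activates it, by 0.64 (SE 0.13, adjusted p = 0.00279), a call that was lost on the fold change without 2-week mouse 7 (0.57). Mmp11 rose by 1.17 (adjusted p = 0.0402, called in 9 of the 20 fits). Without 2-week mice 1, 2 or 7, or 4-week mice 4, 9 or 10, 3 members were called, and without 4-week mouse 3, 8 were. Ctsk, the collagen-degrading lysosomal protease cathepsin K, ranged from 1207 to 2276 (median 1683) at 2 weeks and from 2232 to 3791 (median 3132) at 4 weeks, a log2 fold change of 0.83 (SE 0.12, adjusted p = 5.3e-05) with 9 of 10 mice above the 2-week range.

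The list of TGF-beta, activin and BMP signalling had 2 calls in 32 genes. TGF-beta itself drives fibroblasts to make collagen. None of its ligand genes passed: Tgfb1 had a log2 fold change of 0.07 (adjusted p = 0.876), Tgfb2 0.23 (adjusted p = 0.357) and Tgfb3 0.36 (adjusted p = 0.118). The 2 genes that rose (6.25%, against 1.49% of all genes) were both secreted antagonists of BMP. Of the 32 genes, 27 had a log2 fold change above 0, with a median of 0.22. Nog (noggin) ranged from 24.7 to 51.6 (median 39.8) at 2 weeks and from 34.2 to 91.2 (median 69) at 4 weeks and rose by 0.82 (SE 0.17, adjusted p = 0.00224). Chrd (chordin) rose by 0.6 (SE 0.12, adjusted p = 0.00194), a call that held in 14 of the 20 fits and was lost without 2-week mice 2, 6 or 7 or 4-week mice 4, 5 or 8. Among 28 WNT regulators 5 rose (17.9%, against 1.49% of all genes) and none fell. Dkk3 ranged from 262.7 to 677.2 (median 517.5) at 2 weeks and from 620.6 to 961.7 (median 788.4) at 4 weeks, a log2 fold change of 0.75 (SE 0.12, adjusted p = 0.000325). Sfrp2 rose by 1.4 (SE 0.28, adjusted p = 0.0017), with 4-week mouse 3 lowest of its group at 14.7, and Wif1 by 0.74 (adjusted p = 0.0243). Sfrp2 ranged from 64.1 to 205.3 in saline mice and from 14.7 to 105.3 at 4 weeks. Nkd2 (0.67, adjusted p = 0.0218) and Frzb (0.65, adjusted p = 0.047) were lost without 2-week mouse 2, as was Wif1, which left 2 of the 28. Without 2-week mice 1 or 5 or 4-week mouse 5, 3 were called.

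Genes of activated fibroblasts and contractile cells rose in 3 of 21 cases (14.3%, against 1.49% of all genes). Itga11, a collagen receptor of fibroblasts, ranged from 41.3 to 144.3 (median 68.9) at 2 weeks and from 87 to 330.3 (median 161.2) at 4 weeks, a log2 fold change of 1.14 (SE 0.21, adjusted p = 0.00112). In saline mice Itga11 ranged from 151.5 to 383.9, so its 4-week median lay near the lowest saline mouse. Lrrc15, a membrane protein of TGF-beta-treated fibroblasts, ranged from 28.7 to 575.2 (median 67.4) at 2 weeks and from 260.5 to 858.7 (median 387.5) at 4 weeks and rose by 2.25 (SE 0.53, adjusted p = 0.00832). One 2-week mouse, mouse 8, lay among the 4-week mice at 575.2, the same mouse in which hair keratins were high, and the saline median was 1895, above either group. Myl9, a myosin light chain of smooth muscle, rose by 0.63 (adjusted p = 0.0229), a call that was lost without 2-week mouse 2 (log2 fold change 0.58), 5 (0.55) or 7 (0.52). Without 2-week mice 3 or 9 or 4-week mouse 1, 5 of the list were called. Fibroblast genes outside the list, taken after their values were seen, also rose, among them Cdh11, a cadherin of fibroblasts, by 0.99 (SE 0.18, adjusted p = 0.001), Aebp1, a collagen-binding protein, by 0.95 (SE 0.23, adjusted p = 0.011), Scarf2 (0.86, adjusted p = 0.000387) and the oxidase gene Nox4 (0.7, adjusted p = 0.0436, called in 8 of the 20 fits). Nox4 ranged from 32.2 to 113.6 in saline mice and from 27.9 to 67.3 at 4 weeks. Pdgfra, a general fibroblast marker, had medians of 575.7 and 586.3 and a log2 fold change of 0.16 (adjusted p = 0.494).

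**Figure D3:**
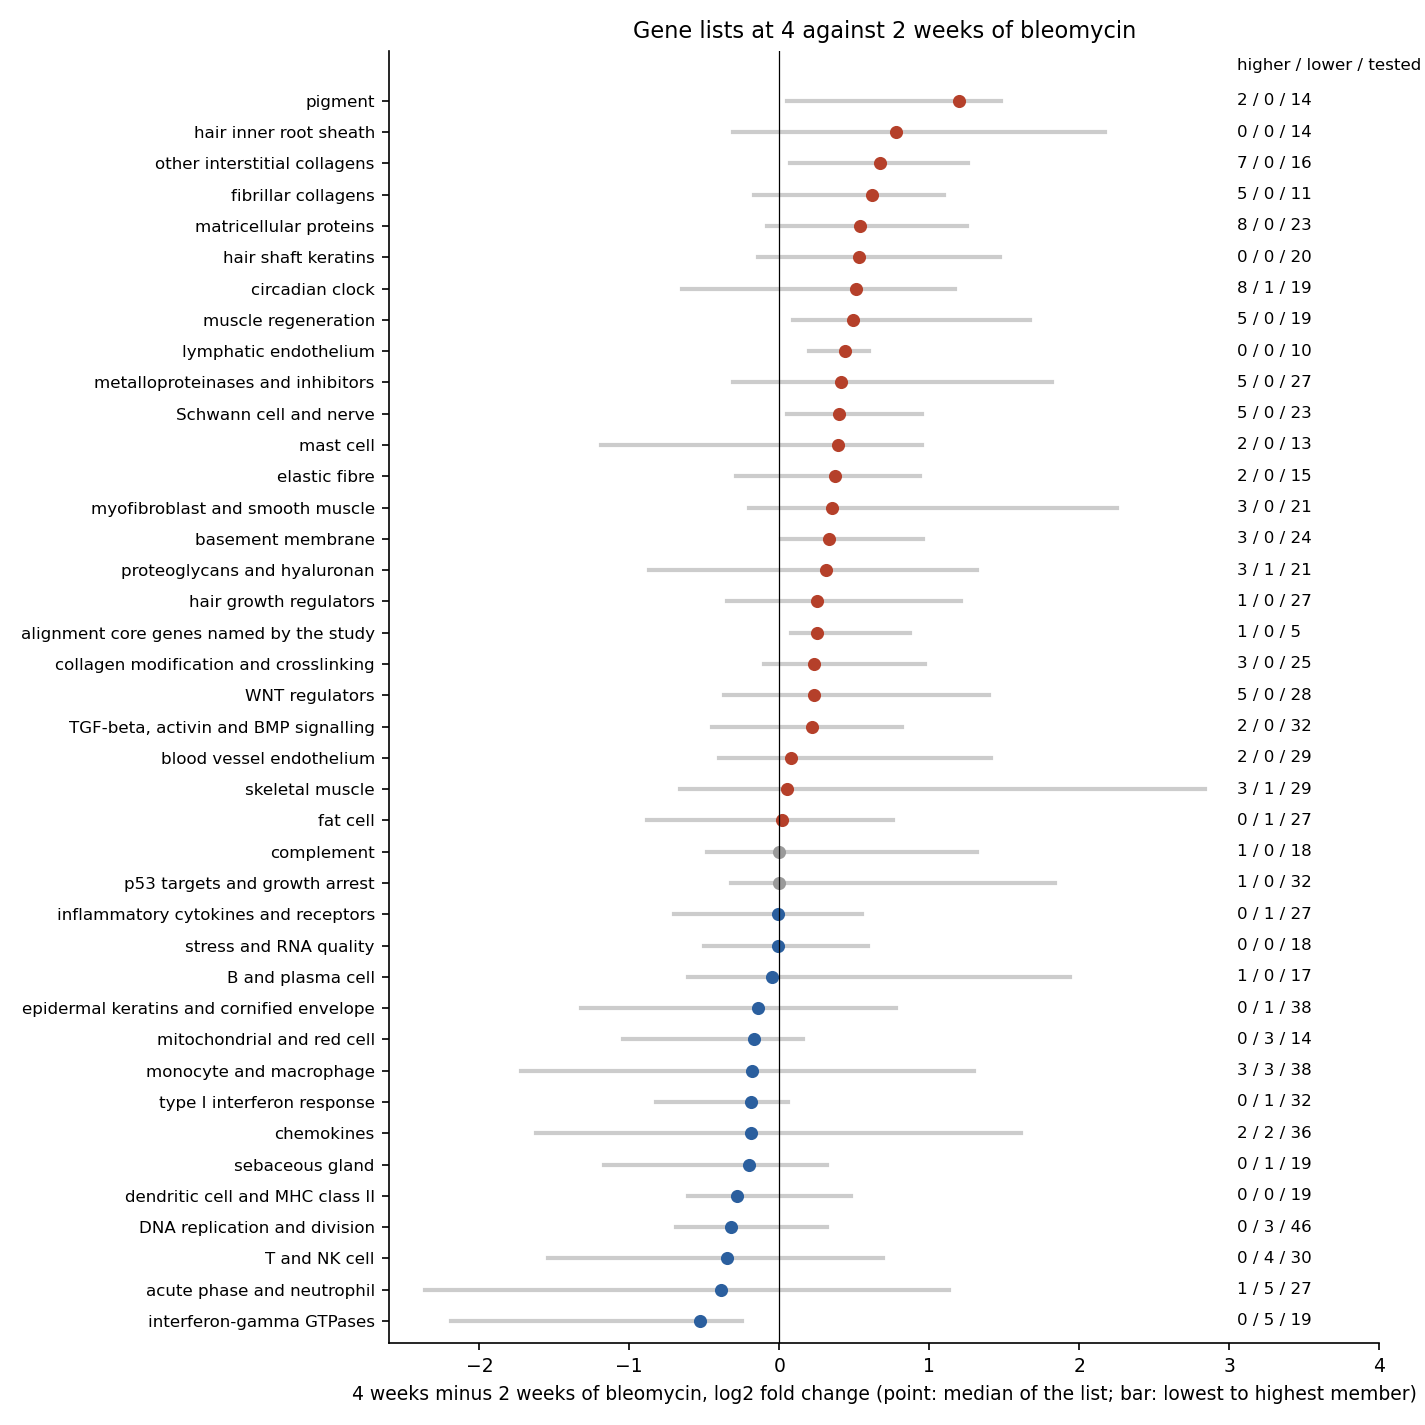
Median log2 fold change at 4 against 2 weeks (point) and the lowest and highest member (bar) of 40 gene lists, with the numbers of members called higher, called lower and tested at the right. The lists of collagens, matricellular proteins and elastic fibres lie to the right of 0 with calls in 1 direction, and the list of interferon-gamma GTPases lies farthest to the left, with a median of -0.53.

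Of the 38 members of the monocyte and macrophage list 3 fell, Ly6c2, Ccr2 and Chil3, and 3 rose, with a median log2 fold change of -0.18. With edgeR and DESeq2, 4 and 5 fell and 2 rose with each. Ly6c2, a surface protein of inflammatory monocytes, ranged from 1575 to 5774 (median 2122) at 2 weeks and from 377 to 1290.5 (median 875.7) at 4 weeks. The groups did not overlap, and the log2 fold change was -1.72 (SE 0.22, adjusted p = 7.7e-06), yet all 10 mice at 4 weeks stayed far above the saline median of 33.2. Ccr2, the chemokine receptor that brings these cells into tissue, ranged from 1845 to 4838 (median 3017) at 2 weeks and from 987.4 to 2541 (median 1627) at 4 weeks, a log2 fold change of -0.96 (SE 0.16, adjusted p = 0.000353). Plac8 (-1.21, adjusted p = 0.00114), Cd300lb (-0.77, adjusted p = 0.000757) and Adgre4 (-0.98, adjusted p = 0.000532) also fell, as did, chosen after their values were seen, the myeloid lectins Clec12a (-0.97, adjusted p = 0.00458) and Clec4a3 (-0.93, adjusted p = 0.00182). Chil3, a chitinase-like protein of alternatively activated macrophages, fell by 1.23 (adjusted p = 0.0224), a call that was lost without 4-week mouse 6 (adjusted p = 0.0544) or 8 (adjusted p = 0.0521).

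The 3 members that rose were Gpnmb, Trem2 and Spp1. Gpnmb, a glycoprotein of lysosome-rich macrophages and of pigment cells, ranged from 525.6 to 1170.2 (median 832.3) at 2 weeks and from 1629.7 to 2321 (median 2136) at 4 weeks, without overlap, and rose by 1.3 (SE 0.24, adjusted p = 0.00083). Saline mice ranged from 379.1 to 3692.6 for Gpnmb, a span that holds both groups. The part of pigment cells in its rise was not tested. Trem2, a lipid receptor of macrophages, ranged from 118.1 to 589.2 (median 215.5) at 2 weeks and from 302.1 to 465.2 (median 359.2) at 4 weeks and rose by 0.67 (adjusted p = 0.0174, and a log2 fold change of 0.57 without 2-week mouse 7). Spp1, described with the matricellular genes, is made by macrophages as well as other cells. General macrophage markers did not pass: Adgre1 (F4/80) had a log2 fold change of -0.21 (adjusted p = 0.524), Csf1r -0.2 (adjusted p = 0.532) and Cd68 -0.03 (adjusted p = 0.961). The summed normalized count of the list ran from 76978 to 134291 at 2 weeks and from 84303 to 116702 at 4 weeks. Of 19 genes of dendritic cells and MHC class II none was called, with a median log2 fold change of -0.28, and 1 was without both 2-week mouse 2 and 4-week mouse 3.

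Interferon-gamma target genes were lower at 4 weeks. Of 19 GTPase genes of the Gbp and related families, which act against microbes within cells, 5 fell (26.3%, against 0.863% of all genes), none rose and all 19 had a log2 fold change below 0. Gbp2b ranged from 12.3 to 96.2 (median 18) at 2 weeks and from 1.07 to 10.1 (median 5.04) at 4 weeks. The groups did not overlap and the log2 fold change was -2.19 (SE 0.35, adjusted p = 0.000196), and the saline median was 16.4. Gbp8 ranged from 106.6 to 364.7 (median 148.6) at 2 weeks and from 24.4 to 150.2 (median 85.4) at 4 weeks and fell by 1.07 (adjusted p = 0.00652), and Gbp6 fell by 0.69 (adjusted p = 0.00266). Gbp3 had a log2 fold change of -0.59 (called in 11 of the 20 fits) and Gbp10 -1.39 (adjusted p = 0.0212, and 0.0524 without 2-week mouse 4). The number of calls was 3 without 2-week mouse 4, 9 without 2-week mouse 10 and 3 without both 2-week mouse 2 and 4-week mouse 3. With edgeR and with DESeq2 it was 7. These genes are close paralogs and Gbp8 overlaps Gbp4 and Gbp9, so reads may be split between them. Cxcl9, an interferon-gamma-induced chemokine that attracts T cells, ranged from 240.1 to 1566 (median 397.9) at 2 weeks and from 52.8 to 208 (median 153.2) at 4 weeks, again without overlap, and the log2 fold change was -1.62 (SE 0.27, adjusted p = 0.000264). The saline median of Cxcl9 was 63.5. Of 32 genes of the type I interferon response 30 had a log2 fold change below 0 (median -0.19), but only Ifi27l2a was called. It ranged from 2070.4 to 6204 (median 2595) at 2 weeks and from 1316 to 1827 (median 1648) at 4 weeks, without overlap, and fell by 0.82 (adjusted p = 0.00377).

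Of the 30 genes of the T and NK cell list 4 fell (13.3%, against 0.863% of all genes), all of them known from cytotoxic cells. With edgeR and with DESeq2, 7 fell. In the whole list 25 genes had a log2 fold change below 0, with a median of -0.35. Nkg7, a granule protein of T and NK cells, ranged from 93.2 to 353.8 (median 126.9) at 2 weeks and from 52.3 to 100.7 (median 82.2) at 4 weeks, a log2 fold change of -0.9 (SE 0.19, adjusted p = 0.00419). Gzma (granzyme A) fell by 1.37 (adjusted p = 0.00907) and the CD8 chains Cd8b1 and Cd8a by 1.54 and 1.33 (adjusted p = 0.0131 and 0.0254). The call of Cd8a was lost without 2-week mouse 2 (adjusted p = 0.0529) or 4 (0.0599) or 4-week mouse 3 (0.0541). Markers shared by all T cells did not pass, with log2 fold changes of -0.22 for Cd3e, -0.33 for Cd3g and -0.21 for Trac (adjusted p = 0.525, 0.217 and 0.717). Without 2-week mouse 2 and 4-week mouse 3 together 2 members were called, and Cd8b1 and Cd8a had adjusted p-values of 0.055 and 0.0921.

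Acute-phase and neutrophil genes fell in 5 of 27 cases (18.5%, against 0.863% of all genes) and rose in 1 (3.7%, against 1.49%). With edgeR and DESeq2, 7 and 8 fell. Saa3, a serum amyloid protein made in inflamed tissue, ranged from 259.4 to 17304 (median 1109) at 2 weeks and from 75.8 to 2317 (median 409.3) at 4 weeks, a log2 fold change of -2.03 (SE 0.58, adjusted p = 0.0287). Mice 2 and 4 were highest at 2 weeks, at 17304 and 9693, and the call was lost without either of them, and in 3 further fits. Saa1 ranged from 5.87 to 684.1 (median 28.4) at 2 weeks and from 2.93 to 23.8 (median 5.48) at 4 weeks and fell by 2.36 (adjusted p = 0.00528), and Saa2 by 1.68 (adjusted p = 0.0486, called in 9 of the 20 fits). The neutrophil genes did not go 1 way. Csf3r, the receptor for granulocyte growth factor, fell by 0.9 (adjusted p = 0.0141), but S100a8 and S100a9 had log2 fold changes of -0.04 and -0.16 (adjusted p = 0.975 and 0.887). Mmp8, the neutrophil collagenase, ranged from 5.87 to 21.3 (median 11.2) at 2 weeks and from 13.2 to 38.7 (median 23.5) at 4 weeks and rose by 1.13 (adjusted p = 0.0304, and 0.0622 without 4-week mouse 9). Without mice 2 and 3 as above, 2 of the list fell, and Csf3r had an adjusted p of 0.065 and Saa3 of 0.118.

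Chemokines and cytokines beyond these showed few calls. Of 36 chemokine genes 2 fell (5.56%, against 0.863% of all genes), Cxcl9 and the receptor Ccr2, and 2 rose (5.56%, against 1.49%). With edgeR and DESeq2, 5 and 6 chemokine genes fell. Ccl17, which attracts type 2 T cells, ranged from 7.85 to 67.9 (median 20.8) at 2 weeks and from 31.3 to 78.4 (median 44.7) at 4 weeks and rose by 1.22 (SE 0.30, adjusted p = 0.0114). Cxcl3, a neutrophil attractant, rose by 1.61 (adjusted p = 0.0415, called in 9 of the 20 fits), and 4-week mouse 4 was at 161.2. Of 27 inflammatory cytokines and receptors only Il13ra2, the decoy receptor for IL-13, was called, with a log2 fold change of -0.7 (adjusted p = 0.0289). It was lost without 2-week mouse 2 (adjusted p = 0.0609) or 4-week mouse 3 (0.0597). Il6ra and Il13ra1 had log2 fold changes of -0.23 and -0.12 (adjusted p = 0.277 and 0.547).

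Of 13 mast cell genes 2 rose (15.4%, against 1.49% of all genes). Kit, the growth factor receptor of mast cells and melanocytes, ranged from 128.8 to 356.7 (median 238.9) at 2 weeks and from 306.5 to 487.2 (median 398.4) at 4 weeks, a log2 fold change of 0.77 (SE 0.16, adjusted p = 0.00248). Tpsb2, a tryptase of mast cell granules, rose by 0.62 (SE 0.16, adjusted p = 0.0141), a call that was lost without 2-week mice 6 or 7 or 4-week mice 4 or 7, while Cpa3 and Mcpt4, other granule proteases, had 0.35 and 0.45 (adjusted p = 0.0833 and 0.0492). Without 2-week mouse 6 or 4-week mouse 7, 1 of the list was called. The summed count of the mast cell list ran from 3780 to 7540 at 2 weeks and from 5994 to 9334 at 4 weeks. Tph1, the first enzyme of serotonin synthesis outside the nervous system, ranged from 12.6 to 40.9 (median 22.2) at 2 weeks and from 49.8 to 83.4 (median 61.2) at 4 weeks, without overlap, and rose by 1.47 (SE 0.25, adjusted p = 0.000387). Jchain, which joins the chains of secreted IgA and IgM, ranged from 3.96 to 91.8 (median 13.4) at 2 weeks and from 11.7 to 136 (median 84.3) at 4 weeks and rose by 1.94 (SE 0.51, adjusted p = 0.0186), with 5 of 10 mice above the 2-week range and 1 below the 2-week median. Its medians after 6 and 10 weeks of recovery were 140.0 and 85.9, and that of saline mice 6.8. It was the only call in the B and plasma cell list of 17, whose median log2 fold change was -0.05 with 10 members below 0. In that list 3 were called higher with edgeR and with DESeq2. Without both 2-week mouse 2 and 4-week mouse 3, 2 were. Xbp1 and Sdc1, which plasma cells use among other cells, had log2 fold changes of -0.05 and 0.03 (adjusted p = 0.588 and 0.895). The B cell marker Cd79a was near the lower limit, at medians of 5.11 and 3.35. Of 18 complement genes only Masp1, a lectin-pathway protease, was called, at 1.32 (SE 0.36, adjusted p = 0.0222), with 2-week mouse 2 lowest at 6.5. A second complement gene was called without 2-week mice 3, 7 or 9, and a second gene of the B and plasma cell list without 2-week mouse 5 or 4-week mice 1, 2 or 3.

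Of the 5 genes that the study names from the core of its collagen alignment signature, chosen by its authors on these mice, 1 was called. Gfra3, the receptor subunit for artemin on sensory nerves, ranged from 44.2 to 140.9 (median 89.9) at 2 weeks and from 96.8 to 194.7 (median 164.7) at 4 weeks, a log2 fold change of 0.87 (SE 0.19, adjusted p = 0.00391). The endothelial genes Emcn, Esam, Robo4 and Sparcl1 had log2 fold changes of 0.11, 0.08, 0.25 and 0.48 (adjusted p = 0.591, 0.814, 0.38 and 0.0724). In saline mice they ranged from 78.7 to 157.6, 141.9 to 331.0, 93.6 to 166.2 and 697.5 to 2536.5. At 4 weeks they ranged from 168.4 to 269.8, 260.0 to 467.8, 127.9 to 248.0 and 2825.8 to 3671.8. Arhgdib, which the study took from fibroblasts cultured on aligned fibres, had a log2 fold change of -0.25 (adjusted p = 0.342). The study also reported Arhgdib as raised in its bleomycin model. It ranged from 685.6 to 1669.3 in saline mice, from 1307.6 to 4644.3 at 2 weeks and from 1332.8 to 2003.5 at 4 weeks. Among 29 blood vessel genes 2 rose (6.9%, against 1.49% of all genes), both known from sprouting endothelium. Esm1 ranged from 2.6 to 19.2 (median 9.32) at 2 weeks and from 15.3 to 41.9 (median 25.7) at 4 weeks, a log2 fold change of 1.41 (SE 0.26, adjusted p = 0.00083), and Apln (apelin) rose by 0.86 (SE 0.22, adjusted p = 0.015). The general endothelial markers Pecam1 and Cdh5 had 0.05 and 0.08 (adjusted p = 0.875 and 0.82). Lymphatic endothelial genes had no call in 10, all 10 above 0, and 1 without 2-week mice 3, 8, 9 or 10 or without both 2-week mouse 2 and 4-week mouse 3.

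Genes of Schwann cells, which ensheath nerves, and of nerve growth rose in 5 of 23 cases (21.7%), and all 23 were above 0. Beside Gfra3, its ligand Artn (artemin) ranged from 7.85 to 17 (median 10.5) at 2 weeks and from 10.8 to 37 (median 23) at 4 weeks, a log2 fold change of 0.95 (SE 0.21, adjusted p = 0.00589). Ncam1, an adhesion molecule of nerve, Schwann cells and regenerating muscle, rose by 0.82 (SE 0.19, adjusted p = 0.00876). Sox10, the transcription factor of Schwann cells and melanocytes, rose by 0.63 (SE 0.15, adjusted p = 0.00958), with log2 fold changes of 0.55 and 0.58 without 2-week mouse 7 and 4-week mouse 9, and Cdh19 by 0.67 (adjusted p = 0.0493, called in 6 of the 20 fits), so that 3 of the list were called without either mouse. The summed count of the list ran from 6237 to 11874 at 2 weeks and from 9612 to 13146 at 4 weeks.

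Muscle genes moved in a pattern of their own. Of 19 genes of muscle regeneration 5 rose (26.3%) and all 19 were above 0. Myh8, the perinatal myosin heavy chain made by new fibres, ranged from 268.3 to 1819 (median 526.7) at 2 weeks and from 656 to 5270.2 (median 1645) at 4 weeks, a log2 fold change of 1.67 (SE 0.35, adjusted p = 0.00325). At 4 weeks mice 5, 8 and 10 were highest, at 5270, 4140 and 3439, and at 2 weeks mice 3 and 10, at 1819 and 1711. Myl4, an embryonic light chain, rose by 1.17 (SE 0.27, adjusted p = 0.00631), Chrnd, a subunit of the acetylcholine receptor, by 1.17 (SE 0.28, adjusted p = 0.0107), and Actc1, the cardiac actin of developing muscle, by 1.28 (adjusted p = 0.031, called in 12 of the 20 fits). The saline median of Myh8 was 125.6. In the list of 29 skeletal muscle genes 3 rose, all of slow fibres, and 1 fell. Myh7, the slow myosin heavy chain, ranged from 0 to 92 (median 11.3) at 2 weeks and from 20.5 to 389.2 (median 81.8) at 4 weeks and rose by 2.84 (SE 0.83, adjusted p = 0.0318), called in 14 of the 20 fits, and Myl3 rose by 2.36 (adjusted p = 0.0245, and 0.0558 without 4-week mouse 5). Tnnt1 rose by 1.16 (adjusted p = 0.0486, in 5 of the 20 fits). Without 4-week mouse 5 the list had 1 call, and without 2-week mice 1 or 2 or 4-week mice 2, 8 or 10 it had 2. Xirp2, a protein of damaged and repairing fibres, ranged from 1829 to 6279 (median 4277) at 2 weeks and from 2046 to 3909 (median 2504) at 4 weeks and fell by 0.66 (adjusted p = 0.0239, and 0.0511 without 2-week mouse 7). The main muscle genes Acta1, Ckm and Myh4 had log2 fold changes of 0.04, -0.09 and -0.17 (adjusted p = 0.936, 0.836 and 0.779). The summed count of the skeletal muscle list ran from 215704 to 478474 at 2 weeks and from 236146 to 397505 at 4 weeks, and the part of muscle content in these calls was not tested.

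Hair follicle genes had no call in the inner root sheath (14 tested) or hair shaft keratins (20 tested), and single mice set their levels. Krt71 was at 711.4 in 2-week mouse 8 and at 27.7 or below in the other 9. At 4 weeks it was at 2181 in mouse 3, 1139 in mouse 8 and 146.3 in mouse 9, and at 27.3 or below in the other 7, against a saline median of 18455. The log2 fold change was 1.61 (SE 1.15, adjusted p = 0.45). Of 27 hair growth regulators 1 rose, Sox2, a transcription factor of the dermal papilla and of Schwann and Merkel cells, which ranged from 1.15 to 15.7 (median 8.36) at 2 weeks and from 9.61 to 26.8 (median 16.9) at 4 weeks, a log2 fold change of 1.08 (SE 0.27, adjusted p = 0.0124), with 2 called without 2-week mouse 8. All 14 pigment genes were above 0, with a median of 1.2, but only Kit and Sox10 passed, against 4 without 2-week mouse 8 and 1 without 2-week mouse 7 or 4-week mouse 9. Dct, an enzyme of melanin synthesis, ranged from 188.6 to 740.8 (median 346.4) at 2 weeks and from 537.7 to 1102 (median 724.2) at 4 weeks and had a log2 fold change of 1.14 (SE 0.36, adjusted p = 0.0518), and Tyrp1, another, 1.26 (adjusted p = 0.106).

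The other skin layers differed little. Of 38 epidermal genes only Ivl (involucrin), a protein of the cornified envelope, was called. It ranged from 1031 to 2198 (median 1622) at 2 weeks and from 835.9 to 1331 (median 956.9) at 4 weeks and fell by 0.63 (adjusted p = 0.002), with log2 fold changes of -0.58 and -0.57 without 2-week mice 5 and 6. Krt5, Krt14, Krt1 and Krt10 had 0.12, -0.2, -0.09 and -0.28 (adjusted p = 0.511, 0.443, 0.843 and 0.273). In the sebaceous list of 19 Plin5, a lipid droplet protein, was the only call. It ranged from 40.4 to 74.9 (median 57.4) at 2 weeks and from 12.7 to 39.6 (median 25.2) at 4 weeks, without overlap, and the log2 fold change was -1.17 (SE 0.22, adjusted p = 0.0011). In the fat cell list of 27 it was Aqp7, the glycerol channel, which ranged from 26.8 to 86.1 (median 50.7) at 2 weeks and from 15.6 to 42.6 (median 25.4) at 4 weeks and fell by 0.88 (adjusted p = 0.00528), while Adipoq and Plin1 had 0.06 and 0.02 (adjusted p = 0.865 and 0.977), and 2 fat cell genes were called without 2-week mouse 9. Akr1c18, which breaks down progesterone, ranged from 134.7 to 296.5 (median 247.2) at 2 weeks and from 39.3 to 140.7 (median 89.6) at 4 weeks. It fell by 1.41 (adjusted p = 4.09e-05) with 9 of 10 mice below the 2-week range, and its saline median was 1391. Serpinb6d, a protease inhibitor, ranged from 36.4 to 109 (median 68.1) at 2 weeks and from 3.91 to 48.1 (median 11.8) at 4 weeks and fell by 2.26 (adjusted p = 0.000757).

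Cell division genes fell in 3 of 46 cases (6.52%, against 0.863% of all genes), and 39 had a log2 fold change below 0, with a median of -0.32. Hmmr, a spindle protein that also binds hyaluronan, ranged from 70.4 to 214.4 (median 141.8) at 2 weeks and from 44 to 138 (median 76.2) at 4 weeks, a log2 fold change of -0.69 (SE 0.17, adjusted p = 0.011). Cenpa, the centromeric histone, fell by 0.65 (adjusted p = 0.0196), with log2 fold changes of -0.53 and -0.56 without 2-week mouse 2 and 4-week mouse 3, and Ube2c, an enzyme of mitotic exit, by 0.65 (adjusted p = 0.0377, called in 11 of the 20 fits). The count ran from 1, without either of those mice, to 9, without 2-week mouse 9. It was also over 1.5 times higher without 2-week mouse 3 (5) or 10 (6) or 4-week mouse 1 (8) or 8 (5). The replication genes Pcna and Rrm1 had log2 fold changes of -0.03 and -0.14 (adjusted p = 0.902 and 0.527). Among 32 p53 targets and growth arrest genes Cdkn2a alone was called, the locus of the inhibitors p16 and p19 that mark senescent cells. It ranged from 2.18 to 16.4 (median 3.86) at 2 weeks and from 11 to 39.3 (median 19.8) at 4 weeks, a log2 fold change of 1.84 (SE 0.31, adjusted p = 0.000325), with 6 of 10 mice above the 2-week range. Its median was 1.25 in saline mice, 113.3 after 6 weeks of recovery and 92.5 after 10. Cdkn1a (p21), the main p53 target for arrest, had medians of 6130.3 and 5811 and a log2 fold change of -0.08 (adjusted p = 0.438). Of 14 mitochondrial and red cell genes 3 fell, the globins. Hbb-bs, Hbb-bt and Hba-a2 fell by 0.95, 1.04 and 0.88 (adjusted p = 0.0175, 0.0183 and 0.0411, the last in 8 of the 20 fits), and none of 18 stress and RNA quality genes was called.

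Genes of the circadian clock differed between the groups. The clock is a loop in which Clock or Npas2 with Arntl (BMAL1) binds the E-box CACGTG and drives its own repressors, the Per and Cry genes, and the output factors Dbp, Tef and Hlf, which bind the D-box TTATGTAA. Of 19 clock genes 8 rose (42.1%, against 1.49% of all genes) and 1 fell (5.26%, against 0.863%). The hour of harvest is not given in the sources used here, and the part of it in these differences cannot be told apart from the groups.

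The 250 bases before the RefSeq start of Ciart (chr3:95882229-95882478, minus strand), Tef (chr15:81802423-81802672, plus strand) and Per3 (chr4:151044666-151044915, minus strand), all GRCm38.p6, are printed as members that rose and hold one of these motifs. Capitals mark CACGTG in Ciart and Tef and TTATGTAA in Per3.
Ciart: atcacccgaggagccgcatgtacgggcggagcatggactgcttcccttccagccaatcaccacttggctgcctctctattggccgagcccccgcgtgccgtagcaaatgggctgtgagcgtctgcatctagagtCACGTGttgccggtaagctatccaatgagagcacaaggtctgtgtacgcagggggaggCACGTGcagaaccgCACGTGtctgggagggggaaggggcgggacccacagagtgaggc
Tef: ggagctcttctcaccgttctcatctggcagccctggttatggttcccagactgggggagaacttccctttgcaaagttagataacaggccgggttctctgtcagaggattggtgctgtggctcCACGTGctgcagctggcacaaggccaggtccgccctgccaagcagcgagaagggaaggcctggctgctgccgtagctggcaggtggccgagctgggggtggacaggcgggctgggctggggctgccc
Per3: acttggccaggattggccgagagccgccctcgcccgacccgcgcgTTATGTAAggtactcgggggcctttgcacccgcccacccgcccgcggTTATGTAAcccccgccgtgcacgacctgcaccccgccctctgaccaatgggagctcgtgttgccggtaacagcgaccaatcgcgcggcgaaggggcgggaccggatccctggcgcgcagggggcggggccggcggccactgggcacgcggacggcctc
Ciart held 3 E-boxes, which began 116, 58 and 44 bases before the start, Tef 1, at 127 bases, and Per3 held 2 D-boxes, at 205 and 158 bases. Over the list 16 genes had 21 promoters in the table, and 6 of these held CACGTG, which reads the same on both strands, against 6.02% of all promoters. TTATGTAA on either strand was in 1, against 0.819% of all promoters. Neither motif contains the other. Dbp, Nr1d1 and Hlf, which also rose, held neither in this window.

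All 3 output factors rose. Dbp ranged from 267.3 to 520.3 (median 414.1) at 2 weeks and from 584.2 to 1014 (median 851.8) at 4 weeks, without overlap, a log2 fold change of 1.04 (SE 0.18, adjusted p = 0.000373). Tef ranged from 1372 to 2051 (median 1666) at 2 weeks and from 1879 to 3338 (median 2526) at 4 weeks and rose by 0.65 (SE 0.09, adjusted p = 5.3e-05), and Hlf by 0.63 (adjusted p = 0.00863), a call that was lost on the fold change without 2-week mouse 5 or 4-week mice 2 or 3. Of the repressors, Per2 ranged from 45.9 to 141.9 (median 77.9) at 2 weeks and from 124.5 to 347 (median 159.5) at 4 weeks and rose by 1.17 (SE 0.19, adjusted p = 0.00025), Per3 ranged from 259.3 to 406.7 (median 317.7) at 2 weeks and from 406.6 to 840.7 (median 518.1) at 4 weeks and rose by 0.72 (SE 0.12, adjusted p = 0.000218), and Nr1d1 (REV-ERB alpha), which represses Arntl, rose by 0.7 (SE 0.18, adjusted p = 0.0145). Ciart and Bhlhe41 rose by 0.6 and 0.6 (adjusted p = 0.0115 and 0.00105), each called in 12 of the 20 fits. Cry2 did not overlap between the groups, from 381.1 to 550.1 at 2 weeks and from 565.9 to 843.7 at 4 weeks, but its log2 fold change of 0.51 (adjusted p = 0.000174) was below the fold threshold, as was that of Bhlhe40 (0.58, adjusted p = 0.000467). Dbp, Tef, Nr1d1 and Ciart overlap a gene on the opposite strand and Per3 one on the same strand, and reads of such pairs may not be told apart.

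Of the genes of the activating arm Npas2 ranged from 48.1 to 144.5 (median 98.1) at 2 weeks and from 43.1 to 74.2 (median 64.4) at 4 weeks and fell by 0.65 (adjusted p = 0.01), and Arntl had a log2 fold change of -0.41 (adjusted p = 0.00266), below the fold threshold. Clock and Cry1 had -0.21 and 0.06 (adjusted p = 0.21 and 0.788). Saline mice had medians of 120.7 for Dbp, 198.2 for Per3 and 1027 for Tef, below both bleomycin groups, and of 574.5 for Arntl and 202.4 for Npas2, above both. After 6 weeks of recovery the medians were 158.8 for Dbp and 630.5 for Arntl. The mean log2(normalized count + 1) of the 19 genes ran from 8.27 to 8.63 in the 2-week mice and from 8.64 to 9.12 in the 4-week mice.

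**Figure D4:**
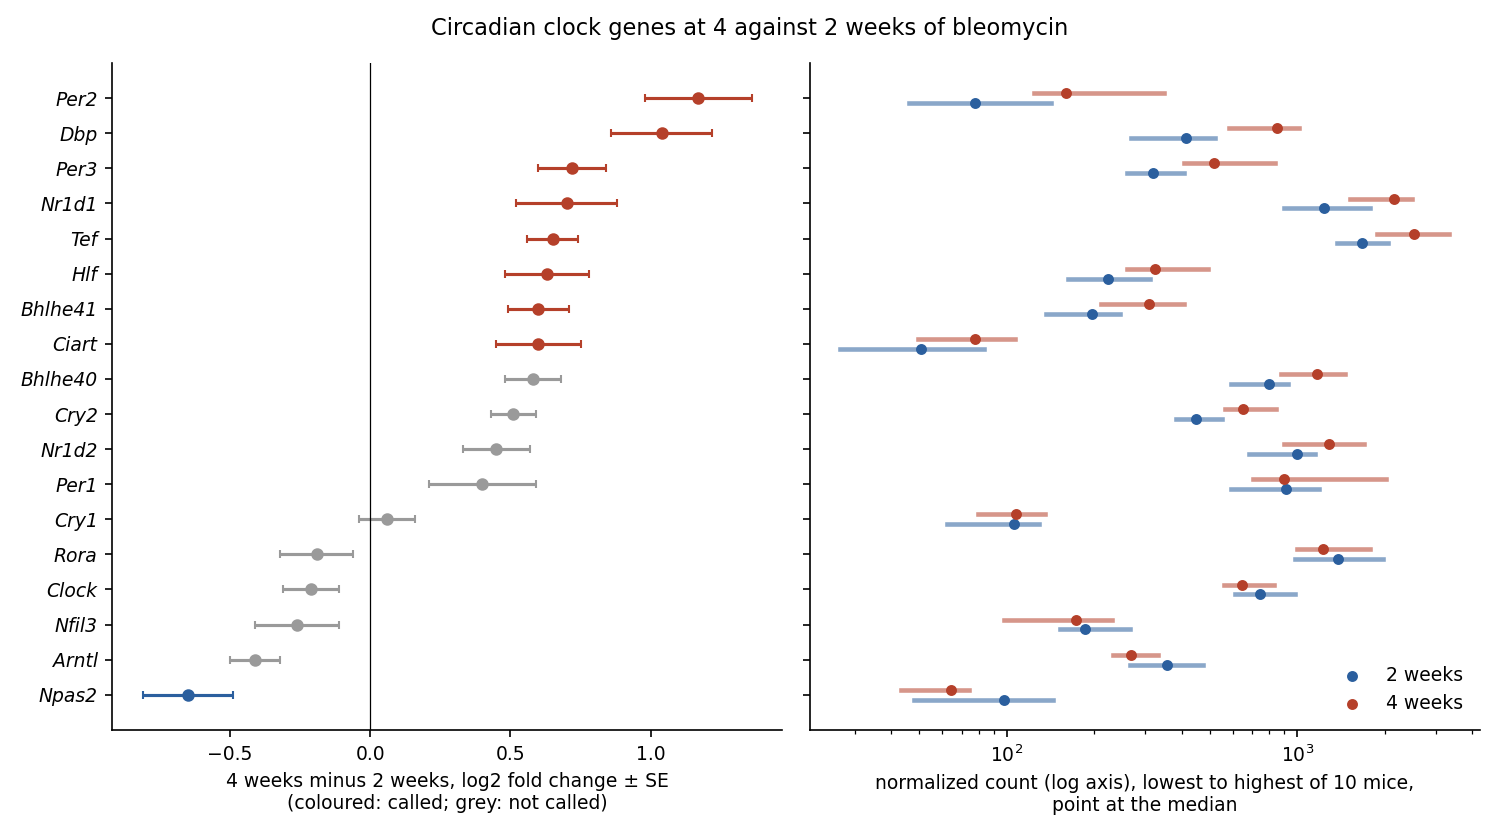
Left, log2 fold change at 4 against 2 weeks with its standard error for 18 of the 19 clock genes, coloured where called; right, the lowest, median and highest normalized count (log axis) of the 10 mice in each group. Per2, Dbp, Per3, Nr1d1, Tef, Hlf, Bhlhe41 and Ciart were called higher and Npas2 lower.

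Mice within a group differed in how far they showed each of these changes. The mean log2(normalized count + 1) of the fibrillar collagens was 8.49 in 2-week mouse 2 and 9.03 in mouse 7, the lowest, and 9.67, 9.87, 9.94 and 9.87 in mice 3, 8, 9 and 10, above the lowest 4-week mouse (mouse 3, 9.57). At 4 weeks the highest were mouse 4 at 10.38 and mouse 8 at 10.34. The interferon-gamma GTPases were highest in 2-week mice 4 and 2, at 9.4 and 8.82, and lowest in 4-week mice 3 and 2, at 7.37 and 7.53. For the T and NK cell list 2-week mice 2 and 4, at 7.4 and 7.33, stood above all other 18 mice, the next being at 6.68.

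**Figure D5:**
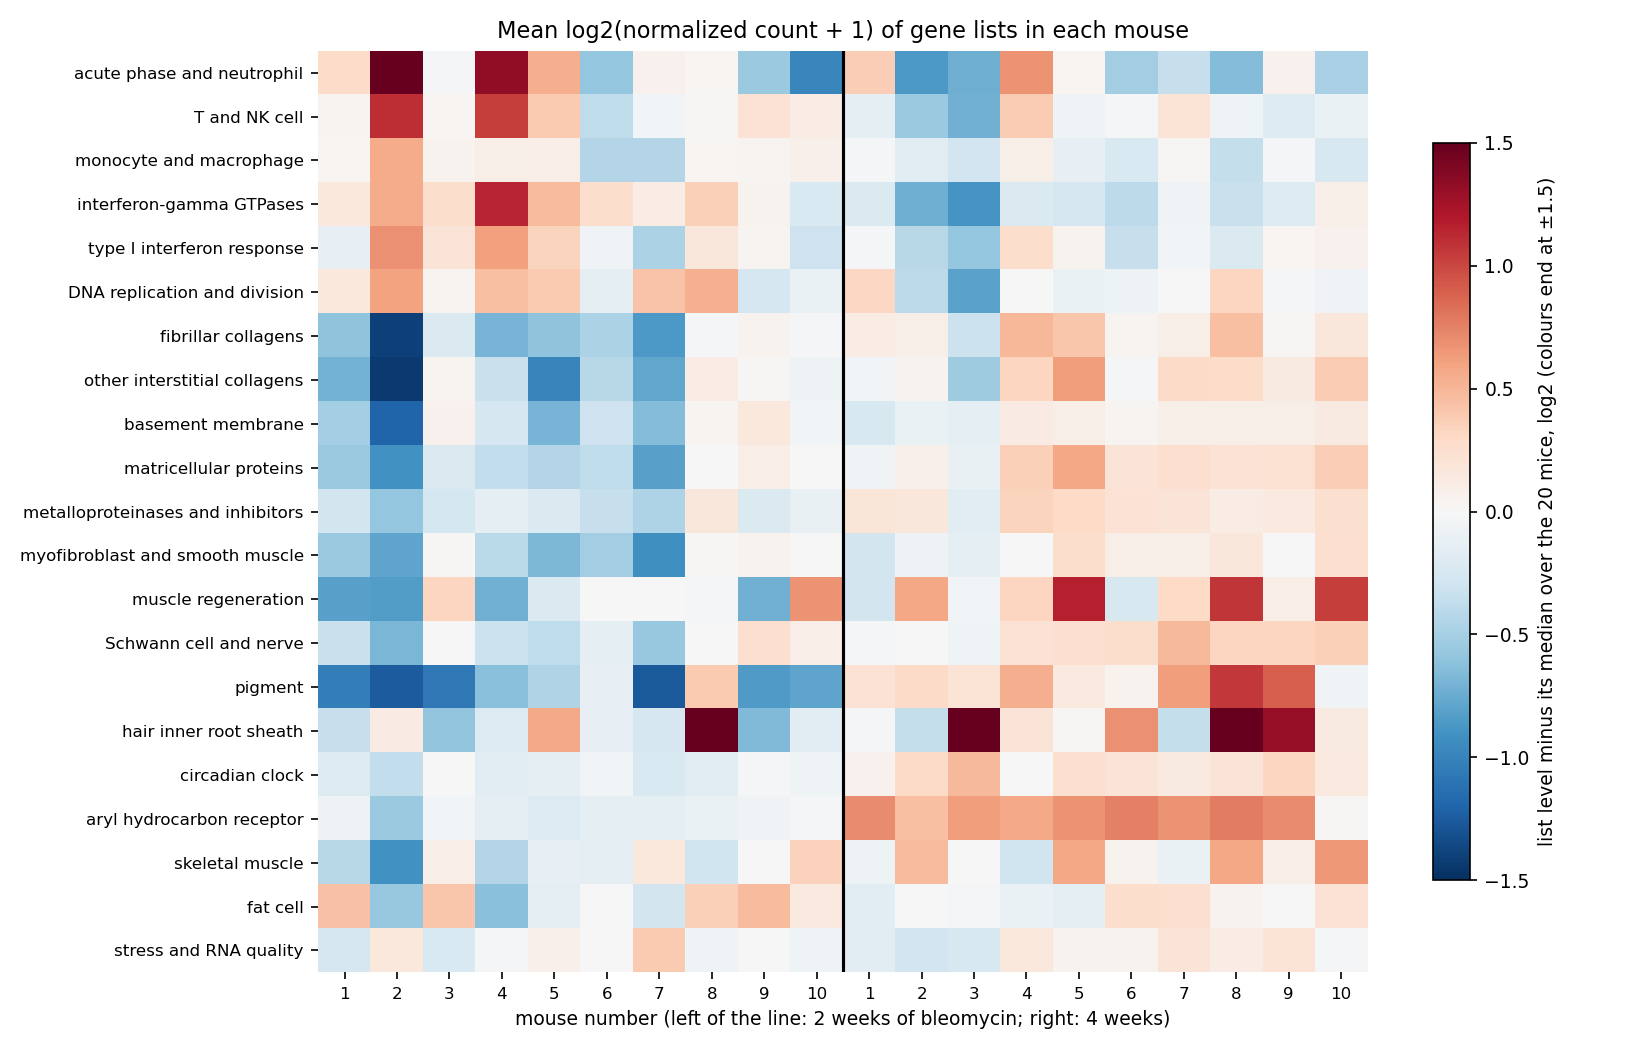
Each column is 1 of the 20 mice (2 weeks left of the line, 4 weeks right) and each row a gene list, coloured by its mean log2(normalized count + 1) minus the median over the 20 mice, with colours ending at ±1.5. In 2-week mice 2 and 4 the rows of T and NK cells and of interferon targets are red and those of the fibrillar collagens blue, and the hair row is red in 2-week mouse 8 and in 4-week mice 3, 8 and 9.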

How the data were processed

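RNA from a part of the back skin biopsy of each of 44 mice was sequenced as 50 bp paired-end reads. Per the submitters' processing notes the authors aligned reads with STAR 2.4.0 to mm10 and scaled them with DESeq2 1.12.3. The deposited signal values are normalized counts, read counts per gene divided by a size factor for each mouse. How reads were assigned to genes (program, strand, gene models) is not given in the sources used here. All 44 columns were matched to a mouse by title. Dividing by the smallest step in each column gave whole reads for 100% of values within 0.02 in all 44 mice. The reads on genes were 8509094 to 15285577 per mouse, which limits the precision of low values.

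The file holds 43411 genes, 98.9% with a symbol, and 14600 had no read. Values were tested as log2(normalized count + 1), which understates the change of low genes, with limma 3.58.1 (mean-variance trend, R 4.3.3) over the 17037 genes with a mean above 3, in 1 fit of the 44 mice in 5 groups. Calls needed an absolute fold change above 1.5 and a Benjamini-Hochberg adjusted p below 0.05, and all tests were two-sided. The alternatives were edgeR 4.0.16 and DESeq2 1.42.0 on the recovered reads, other filters, pseudocounts, scalings, thresholds, thinned reads, the 20 mice alone, a replicate block and each mouse left out. The scripts were tested on simulated data. Each mouse is a separate animal, and no 2 mice of a group agreed within sampling noise.

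The comparison, the gene lists and the tests were chosen with earlier results of these data known, and the core genes of the study were chosen by its authors on these mice. Arhgdib was named with them, though the study took it from cultured fibroblasts. Genes were named as the 12 calls with the smallest adjusted p in each direction, the 4 largest in each direction without overlap between groups, up to 4 called members a direction and the 2 most abundant members of each list, and all fibrillar collagens, TGF-beta ligands and core genes. Other genes that the text names, and the lists on the aryl hydrocarbon receptor, Klr and Ms4a families, fatty acid oxidation and osteoclasts, were chosen after values were seen. Gene positions are from GENCODE vM21, and promoter sequences from RefSeq. A few genes that the rule chose are not reported here, and they stay in the counts over lists.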

Additional observations from a re-analysis of the deposited data

Results flagged for a closer look

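In 544 sets of 10 mice (a named gene in 1 group), the highest or lowest mouse lay farther from the next than Dixon's limit for 10 values in 48 (8.82%), and chance gives about 1 in 20. Values are normalized counts. Mouse 1 of the 2-week group was lowest for Ccn1 (221.7). Mouse 2 of the 2-week group was highest for Ccl8 (27011.2), Ifi27l2a (6203.7), Cdkn1a (7770.8), Ms4a8a (395.4) and Ucp2 (10807.6). Mouse 2 of the 2-week group was lowest for Cyp1b1 (422.7), Col8a1 (124.9), Masp1 (6.5), Col24a1 (13), Col28a1 (53.3), Col17a1 (7746.1), Loxl4 (19.5), Postn (3921.2), Xirp2 (1828.6), Mmrn1 (154.8), mt-Co1 (65345.1), Ahr (682.8), Col11a1 (10.4) and Cdh19 (37.7). Mouse 4 of the 2-week group was highest for Gbp10 (577.9). Mouse 5 of the 2-week group was highest for Mmp12 (766.1) and Col2a1 (36.3). Mouse 7 of the 2-week group was lowest for Lox (355.4), Fam20a (31.0) and Ccn5 (71.1). Mouse 8 of the 2-week group was highest for Lrrc15 (575.2), Krt71 (711.4), Krt25 (504.4) and Krt33a (47.9). Mouse 1 of the 4-week group was highest for Pcna (1213.3) and Rrm1 (1076.5). Mouse 2 of the 4-week group was lowest for Gimap7 (0.0). Mouse 3 of the 4-week group was highest for Emcn (269.8). Mouse 3 of the 4-week group was lowest for Cxcl9 (52.8), Gbp8 (24.4), Col1a1 (16440.0), Col1a2 (19826.3), Col3a1 (17991.4), Sparc (11087.7), Fn1 (2431.2), Sfrp2 (14.7), Atp6v0d2 (41.1) and Matn4 (8.8). Mouse 4 of the 4-week group was highest for Cxcl3 (161.2) and Klrb1b (261.9). Mouse 10 of the 4-week group was lowest for Cyp1b1 (1069.6) and Cyp1a1 (157.3).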

How the results depend on the processing

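Of the 400 calls, no fold threshold gave 956 (522 higher, 434 lower), DESeq2 525 (248 lower), edgeR 446 (210 lower) and a log2 threshold of 0.5 gave 509. The other settings gave 324 to 407 in all. The filter on low values, the pseudocount, quantile or trimmed-mean scaling and thinning each kept the total between 363 and 404. Leaving out 1 mouse gave 310 to 486 calls, 191 to 314 of them higher and 97 to 188 lower, with 97 lower without 2-week mouse 4. The cause was not tested, except that fewer mice and a laxer threshold change the number by construction. Of 155 called genes chosen for naming, 109 were called in all 20 of these fits and 94 in all 14 other settings, and none of the 279 chosen genes reversed. Without 2-week mouse 2 and 4-week mouse 3, chosen after the data were seen, 324 were called.

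Replicate numbers did not pair the mice: same-numbered mice of the groups had correlations of -0.31 to 0.34 over 10 pairs, 4 of them above 0.1, and 2 correlated best with their own number. With the replicate block 407 genes were called, 266 higher and 141 lower, 377 of them among the 400.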

Other observations

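The gene lists in this section were written down after values were seen, so their shares are descriptions and not tests. More genes of natural killer cells were lower at 4 weeks than the list of T and NK cells holds. Of 21 genes of the Klr family, receptors of these cells, 8 fell (38.1%, against 0.863% of all genes), 5 without 2-week mouse 4, and 4 without both 2-week mouse 2 and 4-week mouse 3. With edgeR and with DESeq2, 11 fell. Klra8 ranged from 10.6 to 67.6 (median 22.3) at 2 weeks and from 1.07 to 13.6 (median 6.7) at 4 weeks, a log2 fold change of -1.62 (SE 0.39, adjusted p = 0.00911). Klra4 and Klra9 fell by 1.52 and 1.35 (adjusted p = 0.00763 and 0.00701). The Klra genes are close paralogs, so their reads may be split between them. In the Ms4a family of membrane proteins of leukocytes 5 of 10 genes fell, and 3 without both of those mice. Ms4a4c, known from monocytes, ranged from 729 to 2372 (median 1097) and from 410.1 to 1002 (median 682), a log2 fold change of -0.92 (SE 0.19, adjusted p = 0.00266), and its saline median was 47.6.

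Genes of fatty acid use were lower too. Of 32 genes of fatty acid oxidation and its PPAR targets 6 fell (18.8%, against 0.863% of all genes) and 27 lay below 0, with 3 called without 2-week mouse 3. Pdk4, the kinase that turns cells from glucose to fat as fuel, ranged from 1239 to 3751 (median 2819) at 2 weeks and from 456.9 to 3037 (median 1084) at 4 weeks, a log2 fold change of -1.17 (SE 0.30, adjusted p = 0.0141). Fabp3, a fatty acid carrier of muscle, fell by 0.69 (adjusted p = 0.022). Of 16 osteoclast genes 5 rose (31.2%, against 1.49% of all genes) and 11 were not called, with a median log2 fold change of 0.08. Ctsk, Gpnmb and Spp1, already described above, were among those that rose. Atp6v0d2, a proton pump subunit of osteoclasts and fused macrophages, ranged from 12.3 to 66.9 (median 33.2) and from 41.1 to 105.7 (median 74.3), a log2 fold change of 1.19 (SE 0.28, adjusted p = 0.00908). Igf2, a fetal growth factor, ranged from 235.4 to 1086 (median 480.7) at 2 weeks and from 508.1 to 2152 (median 940.8) at 4 weeks, a log2 fold change of 1.14 (SE 0.25, adjusted p = 0.00391), and its saline median was 140.6. Matn4, a matrix adaptor protein, rose by 1.71 (adjusted p = 0.00114) with 4-week mouse 3 lowest at 8.8, near the 2-week median of 14.4.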
